A study of Mus musculus with 6 samples.

Results

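Metallothioneins and the zinc transporters around them were followed in the liver of mouse pups in which human SRY had been activated. The group was defined by gene name and held Mt1, Mt2, Mtf1, Slc30a1, Slc39a4 and Slc39a14, and all probes carrying 1 of these 6 symbols were taken, without regard to their values. They were 9 of the 25697 probes of the array, which carries 18138 symbols in all. Total RNA came from the liver of male FVB mice (FVB/N in the methods) at postnatal day 6, with 3 hSRY-OFF and 3 hSRY-ON pups, and each pup's RNA was hybridised to 1 Illumina MouseRef-8 BeadChip array. The responder transgene, Signalox-hSRY, sits as a single copy at the H11 locus and carries the broadly active CAG promoter, a floxed DsRed2 gene and a FLAG-tagged human SRY-IRES-EGFP cassette. In hSRY-ON pups, Cre protein handed down by Ddx4-Cre mothers through the oocyte had removed DsRed2 in the early embryo, so that SRY and EGFP were driven by CAG, and the hSRY-ON pups chosen for the arrays did not carry Ddx4-Cre themselves. The methods define hSRY-OFF mice as carriers of Signalox-hSRY that had not been recombined, whereas other passages of the study describe littermates without the responder as controls, so the transgene state of these 3 controls rests on the label. All animals therefore share the strain, sex and age, 1 integration site was used, and expression was under CAG rather than any promoter of SRY itself. The study also reports that hSRY-ON pups suckled little, lacked milk in the stomach, grew more slowly and had fatty livers. The part of these states in the differences below was not tested. No probe of the array was assigned to human SRY, so its level was not analysed here.

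Metallothioneins are small cysteine-rich proteins that bind zinc and copper, and in liver they form the main inducible store of zinc, abundant around birth. Zinc that is free in the cell activates the transcription factor MTF-1, encoded by Mtf1, which binds metal response elements in the promoters of Mt1, Mt2 and the zinc exporter gene Slc30a1. Transporters of the SLC30 family (ZnT) move zinc out of the cytosol, and those of the SLC39 family (ZIP) move it in. Slc39a4 encodes the importer ZIP4, known for zinc uptake in the gut and the yolk sac, and Slc39a14 encodes ZIP14, an importer of zinc and iron whose transcript is induced by interleukin-6 in hepatocytes. Glucocorticoids and interleukin-6 also induce metallothionein genes.

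The promoter sequences of the 3 genes known as direct MTF-1 targets are shown because metal response elements are the known link between zinc and the members that store and export it. Each window runs from 250 bases before to 50 bases after the annotated RefSeq start on the GRCm38.p6 assembly and is printed 5′ to 3′ on the strand of the gene, with matches to the metal response element cores TGCACNC and TGCGCNC, searched on both strands, in capitals. The Mt1 window is chr8:94178839-94179138 on the plus strand, the Mt2 window chr8:94172368-94172667 on the plus strand, and the Slc30a1 window chr1:191906531-191906830 on the plus strand.
Mt1: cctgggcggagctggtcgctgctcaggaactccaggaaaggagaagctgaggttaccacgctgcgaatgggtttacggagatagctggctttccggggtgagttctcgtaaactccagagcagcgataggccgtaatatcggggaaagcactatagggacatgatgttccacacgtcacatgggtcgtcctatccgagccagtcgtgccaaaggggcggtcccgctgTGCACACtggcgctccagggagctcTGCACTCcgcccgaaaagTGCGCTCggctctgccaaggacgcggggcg
Mt2: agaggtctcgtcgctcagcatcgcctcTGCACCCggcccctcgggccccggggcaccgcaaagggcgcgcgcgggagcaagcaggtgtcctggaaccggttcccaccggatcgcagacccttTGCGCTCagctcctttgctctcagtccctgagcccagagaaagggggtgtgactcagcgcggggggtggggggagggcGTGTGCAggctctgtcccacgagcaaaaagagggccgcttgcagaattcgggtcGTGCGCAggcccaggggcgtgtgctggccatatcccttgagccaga
Slc30a1: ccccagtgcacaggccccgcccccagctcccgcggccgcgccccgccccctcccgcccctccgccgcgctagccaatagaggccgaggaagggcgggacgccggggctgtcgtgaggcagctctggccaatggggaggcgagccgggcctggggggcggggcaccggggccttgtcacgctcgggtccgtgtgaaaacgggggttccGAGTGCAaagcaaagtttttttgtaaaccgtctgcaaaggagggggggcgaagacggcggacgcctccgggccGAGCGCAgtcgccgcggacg
The Mt1 window held 3 core matches, the Mt2 window 4 and the Slc30a1 window 2. Of 32851 RefSeq promoter windows of the same length, 25.7% held at least 1 core match, 1.969% at least 3 and 0.5175% at least 4. The window of Mtf1 held 0 matches, which says only that these letters are not in those 300 bases. A match describes the sequence and is not evidence of MTF-1 binding in these livers. The counts hold only for windows around the annotated starts, and whether transcripts begin there in these livers was not tested. Windows of Slc39a4 and Slc39a14 were not used here.

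Array quality differed little between the groups. Raw median intensities ranged from 147 to 165, and between 10318 and 10762 probes were detected per array (detection p under 0.01). The spread between hSRY-ON arrays was larger, with a median SD of 0.21 on the log2 scale against 0.14 between hSRY-OFF arrays. Of the 9 member probes, 5 were detected on at least 3 of the 6 arrays and were tested, 1 for each gene except Mtf1. The p-values rest on the spread between these pups, moderated by limma towards a variance shared over all tested probes. For a probe that varies little the shared part sets most of the SE, and 3 arrays per group limit the precision. Since the liver was measured whole, fewer cells of a type and less RNA per cell cannot be told apart.

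Among the 5 tested probes, Mt2 rose and Slc39a4 fell in hSRY-ON livers, whereas Mt1, Slc30a1 and Slc39a14 were not past the threshold (limma, Benjamini-Hochberg adjusted p under 0.05 over 10734 tested probes). Over all tested probes, 15.8% were called higher and 17.3% lower, so 1 probe in each direction out of 5 is near the background share and is not a result about the gene group as a whole. Values of the groups did not overlap at 2 probes that were higher in hSRY-ON livers, Mt1 and Mt2, and at 1 that was lower, Slc39a4. Over all tested probes the corresponding shares were 25.4% and 24.6%.

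**Figure D1:**
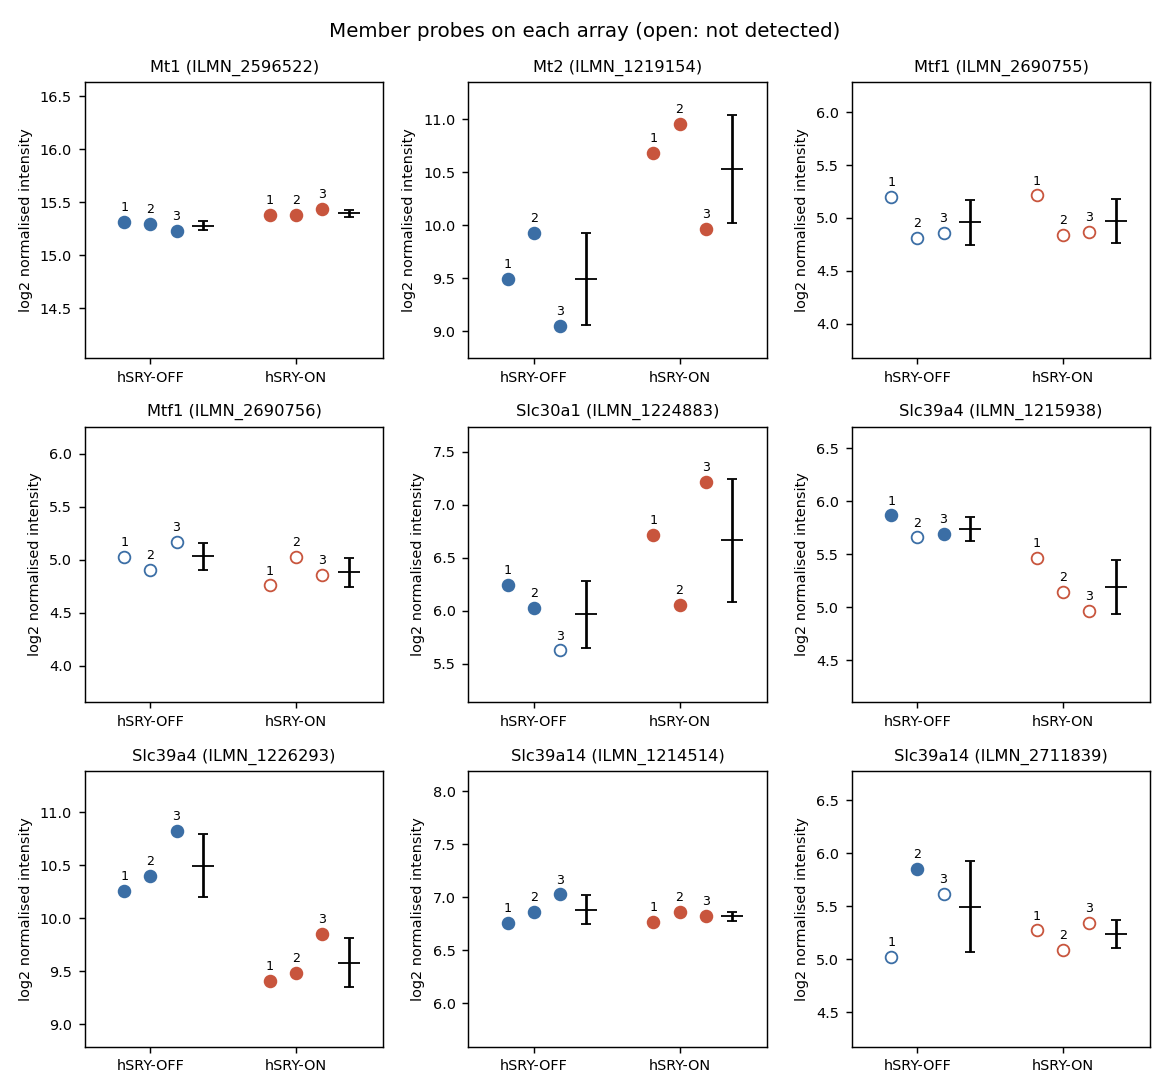
The panels plot the log2 normalised intensity (y axis, 1 panel per probe, each with its own range) of the 9 member probes in hSRY-OFF (blue) and hSRY-ON (red) livers. Points are single arrays numbered by replicate, open where the probe was not detected. The line and bars give the mean ± SD of 3 arrays. The groups do not overlap for Mt1, Mt2 and both Slc39a4 probes, with gaps of only 0.06 log2 units for Mt1 and 0.04 for Mt2. Both Mtf1 probes are open on every array.

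The store, Mt1 and Mt2, gave a very bright probe that was not called and a moderately bright one that rose. The Mt1 probe (ILMN_2596522) had intensities of 40669.5, 40894 and 36315 in the 3 hSRY-OFF livers and 41730.4, 44261 and 43067 in the 3 hSRY-ON livers, before normalization. All hSRY-ON values lay above all hSRY-OFF values, but by little. On the log2 scale the means were 15.28 ± 0.04 and 15.40 ± 0.03 (SD, n = 3 each), a difference of 0.12 ± 0.11 (SE; 95% confidence interval -0.13 to 0.37) that did not pass the test (limma adjusted p 0.429). The SE of 0.11 is larger than either SD, because limma draws the variance of a steady probe up towards the shared one. The lack of a call and the interval therefore rest largely on that shared variance. The interval leaves room for at most a 1.29-fold rise on the normalised scale.

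The Mt1 probe was read near the top of the scale of these arrays. Its intensity was 77.6% to 87.9% of the brightest probe's on the hSRY-OFF arrays and 91.3% to 94.6% on the hSRY-ON arrays, and the brightest intensities of the arrays lay between 44365 and 47161. Among the 20 brightest probes of the table, Mt1 included, the largest absolute log2 difference between groups was 0.21 and the median 0.059, against a median of 0.343 over all tested probes. None of these 20 was called by limma, and 0 had an unadjusted p under 0.05. That count says little, because the shared variance keeps the SE up even where arrays do not differ. Hba-a1, with an SD of 0 in both groups, had an SE of 0.105, so differences this small could hardly pass. Whether the signal was compressed at this level was not tested, and the Mt1 difference is that of the measured intensity.

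**Figure D2:**
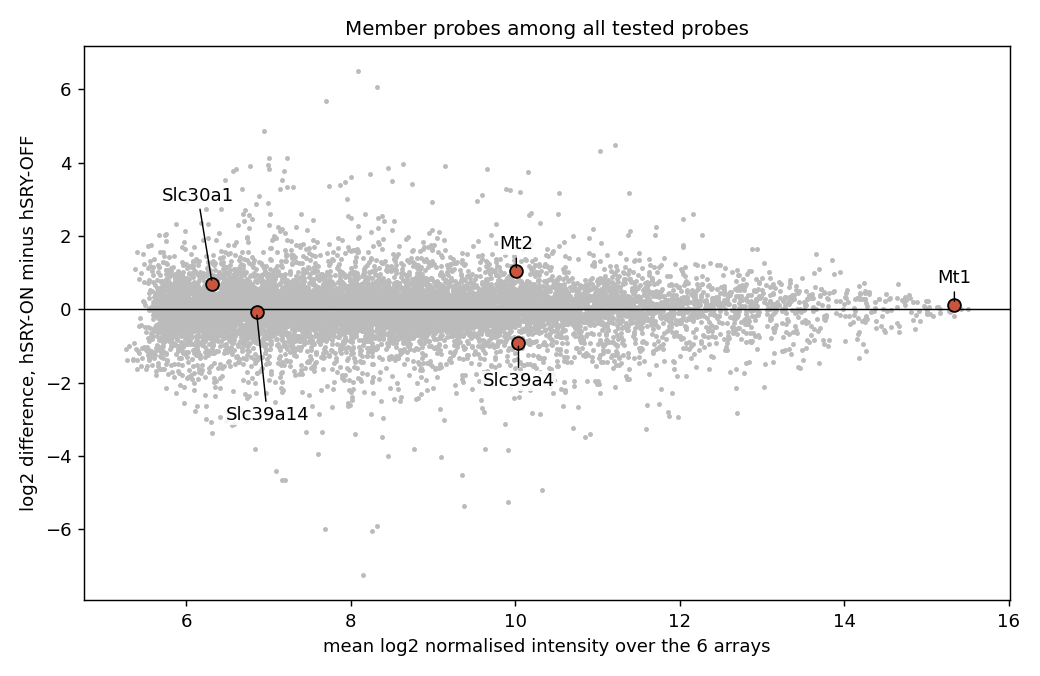
Each grey point is a tested probe, with its mean log2 normalised intensity over the 6 arrays on the x axis and its log2 difference, hSRY-ON minus hSRY-OFF, on the y axis. The 5 tested member probes are marked in red. The cloud narrows towards the brightest probes, where Mt1 lies. By mean intensity Mt2 and Slc39a4 lie at percentiles 76.7 and 77.1 of the tested probes, and Slc30a1 and Slc39a14 at 14.8 and 25.2.

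Mt2, the neighbouring metallothionein isoform gene, was detected on every array with its only probe (ILMN_1219154). The intensities were 919, 1219 and 554 in hSRY-OFF livers and 1884, 2025 and 997 in hSRY-ON livers. The third replicate was the lowest of its group in both groups, and its hSRY-ON value lay under the second hSRY-OFF value before normalization. After normalization the groups no longer overlapped, but the lowest hSRY-ON value was only 0.04 log2 units above the highest hSRY-OFF value. The means were 9.49 ± 0.44 and 10.53 ± 0.51 (SD, n = 3 each), a difference of 1.04 ± 0.30 (SE), or 2.06-fold (95% confidence interval 1.25 to 3.38), with a limma adjusted p of 0.0359.

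The direction of Mt2 was the same in all 18 alternatives computed, with differences from 0.82 to 1.33, but its call was not. It was lost with median scaling, with the trimmed mean of M values, without the filter on dim probes, and when a single array was left out, namely replicate 1 or 3 of hSRY-OFF or replicate 1 or 2 of hSRY-ON, with limma adjusted p from 0.0056 to 0.106 over the alternatives. Whether the probes of Mt1 and Mt2, whose coding sequences are similar, also bind each other's transcript was not tested, because probe sequences were not used here. The remaining family members, Mt3 and Mt4, each had 1 probe that was detected on 1 array, an hSRY-ON array for Mt3 and an hSRY-OFF array for Mt4, and neither was tested.

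The sensor gene Mtf1 was below detection in both groups. Its first probe (ILMN_2690755) had intensities of 167, 154 and 141 in hSRY-OFF and 169, 147 and 140.2 in hSRY-ON livers, and its second (ILMN_2690756) had 160.2, 158 and 149 in hSRY-OFF and 151, 154 and 139.8 in hSRY-ON livers. The groups overlapped at both probes, which were detected on 0 of the 6 arrays with detection p from 0.056 to 0.286, so no difference in Mtf1 was detectable on this array. These intensities bear on the transcript only, since MTF-1 acts through zinc binding of the protein.

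The exporter gene Slc30a1, encoding ZnT1 of the plasma membrane, was dim. Its probe (ILMN_1224883) had intensities of 211, 202 and 162 in hSRY-OFF livers, the last of them not detected, and 249, 189 and 249 in hSRY-ON livers. The second hSRY-ON replicate lay among the hSRY-OFF values, and the other 2 lay above them. The means on the log2 scale were 5.96 ± 0.31 and 6.66 ± 0.58 (SD, n = 3 each), and the difference of 0.70 ± 0.30 (SE; 95% confidence interval -0.0045 to 1.40) did not pass the test (limma adjusted p 0.112). With the undetected array at its detection floor the difference was 0.68. Without hSRY-ON replicate 2 the difference was 1.01 and passed the test (adjusted p 0.0221, with 0.0221 to 0.285 over the 17 alternatives that gave a value). The size also depended on the background correction, with 0.29 when none was applied.

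The importers were represented by Slc39a4, which fell, and Slc39a14, which stayed within the spread between pups. The brighter Slc39a4 probe (ILMN_1226293) had intensities of 1472, 1643 and 1709.8 in hSRY-OFF livers and 889.9, 821 and 928 in hSRY-ON livers. Every hSRY-ON value was below every hSRY-OFF value, with a gap of 0.41 log2 units between the groups after normalization. The means were 10.49 ± 0.30 and 9.58 ± 0.23 (SD, n = 3 each), and the difference of -0.91 ± 0.19 (SE; 95% confidence interval -1.36 to -0.46), 1.88-fold down, had a limma adjusted p of 0.0111. The difference lay between -1.05 and -0.74 in the 18 alternatives, with adjusted p from 0.0021 to 0.041, so Slc39a4 was called under every processing and without any 1 array, though not at a stricter threshold of 0.01.

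The other Slc39a4 probe (ILMN_1215938) was near the detection limit. Its intensities were 192, 187 and 164 in hSRY-OFF livers, where 2 arrays detected it, and 178, 158 and 143 in hSRY-ON livers, where 0 did. It was not tested, and no bound on its fall can be given, because hSRY-OFF replicate 2 was below detection too. When probes with a detection p under 0.05 on 3 arrays were admitted, its difference was -0.55 with a limma adjusted p of 0.0387, against 0.0529 with no filter. Its groups overlapped before normalization and not after it, but the hSRY-ON values compared there were all below detection. With undetected arrays at their detection floor its difference was only -0.055. The fall of Slc39a4 therefore rests on the brighter probe.

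Slc39a14 had 1 tested probe (ILMN_1214514), with intensities of 246, 259.7 and 227 in hSRY-OFF and 253, 237 and 219.8 in hSRY-ON livers. The groups overlapped. The means were 6.88 ± 0.13 and 6.82 ± 0.05 (SD, n = 3 each), and the difference of -0.06 ± 0.12 (SE; 95% confidence interval -0.35 to 0.22) did not pass the test (limma adjusted p 0.716). Without hSRY-OFF replicate 3 its sign turned, to 0.0079. The other probe (ILMN_2711839) was detected on 1 hSRY-OFF array and on 0 hSRY-ON arrays, with intensities of 160.1, 194 and 162 against 171, 156 and 154, and gives no fold.

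**Figure D3:**
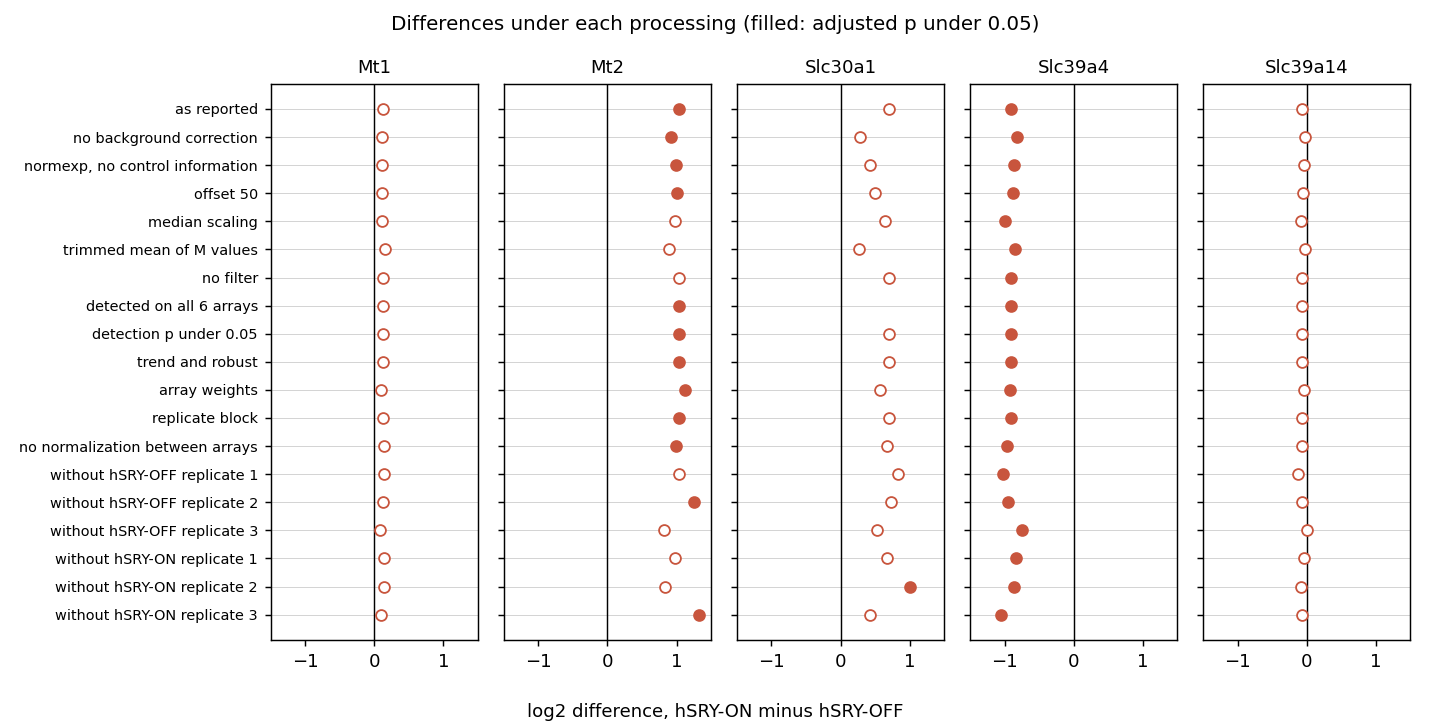
The panels show the log2 difference, hSRY-ON minus hSRY-OFF (x axis), of the 5 tested member probes as reported and under each alternative processing or with 1 array left out (y axis). Filled points had a limma adjusted p under 0.05; Slc39a4 is filled in every line, Mt2 in 12 of 19, and Slc30a1 only without hSRY-ON replicate 2, while a missing point means that the probe was not tested.

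The wider families of metallothioneins, SLC30 and SLC39 transporters were examined next, on lists that include the members. They had 39 probes, of which 22 were tested, 2 were higher and 6 lower in hSRY-ON livers, and 14 were not called, with differences from -0.45 to 0.70. The median difference was -0.17, against 0.017 over all tested probes. The lower calls lay among the importers. Of 14 tested SLC39 probes from 9 genes, 6 probes of 4 genes were lower and 1 was higher, with a median of -0.33, beside 17.3% lower and 15.8% higher over all tested probes. Without the member genes these counts were 5 lower and 1 higher of 12 tested probes. In both counts 1 lower probe, that of Slc39a3, was undetected on all hSRY-ON arrays and passed the filter through hSRY-OFF alone. With detection required on all 6 arrays, 5 probes of the metallothionein, SLC30 and SLC39 lists were lower. The lower calls included 3 probes of 1 gene, which are not independent.

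That gene was Slc39a5, encoding ZIP5, an importer of the basolateral membrane of polarised cells. Its probe ILMN_2735308 had intensities of 850.1, 823 and 705 in hSRY-OFF and 419.7, 351 and 359 in hSRY-ON livers, with no overlap between the groups. Of its 4 probes, 3 were tested and all 3 fell, with log2 differences of -1.36 ± 0.12 (ILMN_2735308), -1.32 ± 0.22 (ILMN_3150519) and -1.37 ± 0.21 (ILMN_3071741) (SE; limma adjusted p 0.000402, 0.00478 and 0.0036). The groups did not overlap at any of the 3 probes, and their 95% confidence intervals overlapped each other. The remaining Slc39a5 probe (ILMN_2705424) was detected on 1 hSRY-OFF array and on 0 hSRY-ON arrays and was not tested.

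Slc39a8, encoding ZIP8, an importer of zinc and manganese closely related to ZIP14, had intensities of 456, 551 and 358 in hSRY-OFF and 257, 260.5 and 232 in hSRY-ON livers. Its hSRY-ON values were all below the hSRY-OFF values, and the difference was -1.34 ± 0.15 (SE; limma adjusted p 0.00102), while its other probe was undetected on every array. Slc39a3 (ZIP3) was detected by its tested probe on all 3 hSRY-OFF and on 0 hSRY-ON arrays. Its fall is therefore known only as a bound of at least 1.28-fold. That probe passed the detection filter through the hSRY-OFF arrays alone. Its call (limma adjusted p 0.0084) compares hSRY-ON values below detection and adds nothing to the bound. The other Slc39a3 probe, detected on 2 hSRY-OFF arrays and on 0 hSRY-ON arrays, was not tested. The 1 importer that rose was Slc39a6, encoding ZIP6, a relative of ZIP10. It had intensities of 224, 241 and 186 in hSRY-OFF and 327, 288 and 276 in hSRY-ON livers, without overlap, and a difference of 0.99 ± 0.12 (SE; limma adjusted p 0.0015).

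The exporters gave no call. Of 13 SLC30 probes, 6 were tested, with differences from -0.38 to 0.70, the highest being that of Slc30a1, and limma called 0 of them, with 0 at an unadjusted p under 0.05. Among the SLC30 genes, Slc30a2 was not on the array, and all probes of Slc30a3, Slc30a4 and Slc30a8 were undetected. Of the SLC39 genes, Slc39a2 and Slc39a9 were not on the array, and Slc39a1, Slc39a10 and Slc39a12 were undetected.

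**Figure D4:**
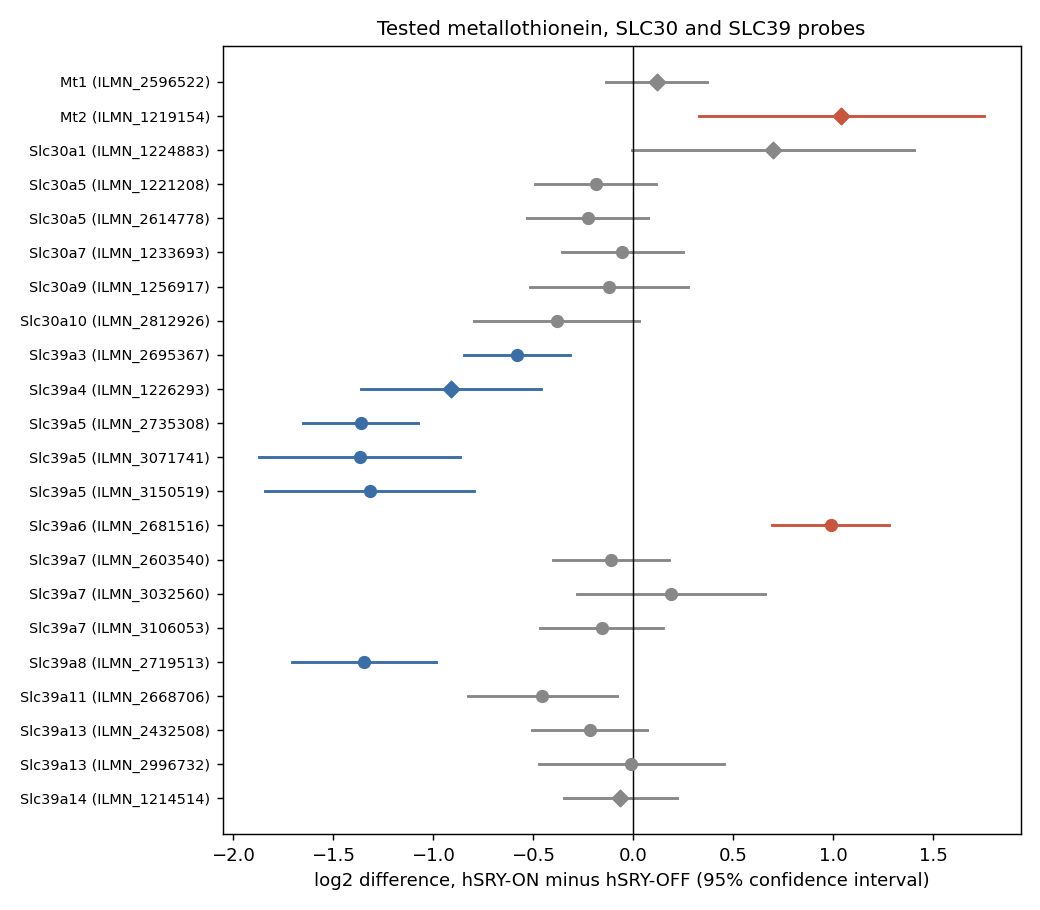
The log2 difference, hSRY-ON minus hSRY-OFF (x axis, lines giving the 95% confidence interval), is plotted for the 22 tested probes of the metallothionein, SLC30 and SLC39 families (y axis), with diamonds for member genes. Red marks a limma call higher in hSRY-ON, blue a call lower and grey no call; the blue points are all SLC39 importers, and for Slc39a3, undetected in hSRY-ON livers, the plotted difference is a fitted value and not a measured size.

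Metallothioneins also bind copper, and copper-handling genes were looked at for that reason. Of 19 probes, 10 were tested, of which 3 were lower and 0 higher, where 1 had an unadjusted p under 0.05 in the higher direction. Over all tested probes 17.3% were lower. The count of 3 was not steady. Over 18 alternatives it was 3 in 1, 2 in 13 and 1 in 4, so the copper genes named here are those called by the processing used for the other results. Slc31a1, encoding the copper importer CTR1, had intensities of 3809, 3662 and 2537 in hSRY-OFF and 2168, 1325 and 1389 in hSRY-ON livers, and its difference was -1.01 ± 0.18 (SE; limma adjusted p 0.0065). Atp7b, the copper-exporting ATPase of hepatocytes, differed by -0.57 ± 0.17 (adjusted p 0.0388). It was undetected on 2 of the hSRY-ON arrays, and with these set to their floor the difference was -0.51. Commd1, which acts with ATP7B in biliary copper excretion, differed by -0.56 ± 0.15 (adjusted p 0.0255). A second Commd1 probe (ILMN_1215639) differed by -0.14 ± 0.17 and was not called (adjusted p 0.572), and the other 3 probes of Atp7b were undetected. A single lower call was left when hSRY-OFF replicate 1 or hSRY-OFF replicate 2 was left out, when the replicate number was a block and when arrays were not normalised to each other.

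Genes under the inducers of metallothionein are given as context, by their counts. Of the 3 tested probes of other genes reported as targets of MTF-1, which belong to 2 genes, all 3 were higher, Ndrg1 by 2.49 ± 0.35 (ILMN_1250195) and 2.18 ± 0.28 (ILMN_2646166, listed under an older name) and Selenow by 0.86 ± 0.20 on the log2 scale (SE; limma adjusted p 0.0023, 0.0017 and 0.0143). Over all tested probes 15.8% were higher, and 3 probes of 2 genes are too few to read as a result about MTF-1 targets. Ndrg1, a differentiation- and stress-induced gene, and Selenow, a selenoprotein gene, also answer to other signals, and the probes of Csrp1, Gclc and Slc39a10 were undetected. Of 12 tested probes of glucocorticoid-induced genes, 7 were higher and 0 lower, where 0 had an unadjusted p under 0.05 in the lower direction, with a median difference of 1.47 and 15.8% higher over all tested probes. The 7 probes belong to 4 genes, Per1, Klf9, Dusp1 and Cdkn1a, the last with 3 probes. The Tat probe was undetected on every array and was not tested. The 5 tested probes not called were those of Fkbp5 (0.37), Lcn2 (0.58), Sgk1 (0.92) and Tsc22d3 (-0.49 and -0.16), of which Fkbp5 and Tsc22d3 are among the best known glucocorticoid-induced genes. The largest differences there were those of the clock gene Per1, 2.17 ± 0.24 (ILMN_2813487) and 2.10 ± 0.24 (ILMN_2813484), and of the transcription factor gene Klf9, 2.11 ± 0.36 (SE; adjusted p 0.000888, 0.00103 and 0.0047). Of 18 tested probes of interleukin-6 and acute phase genes, 3 were higher and 1 lower, with a median of 0.059, beside 15.8% higher and 17.3% lower over all tested probes. The lower one was Saa3, a serum amyloid A gene, at -1.17 ± 0.17 (SE; limma adjusted p 0.00296). The higher ones were Orm1, an acute phase plasma protein gene, by 3.25 ± 0.41, Socs3, a feedback inhibitor of interleukin-6 signalling, by 1.35 ± 0.19, and Orm2, undetected on all hSRY-OFF arrays, at least 5.88-fold (adjusted p 0.0015, 0.0025 and 0.0486). The hSRY-ON intensities of Orm2 were 1899.7, 318 and 200.1, so its mean rests largely on the first replicate. Orm2 passed the detection filter through the hSRY-ON arrays alone. Its call compares hSRY-OFF values below detection and adds nothing to the bound. The part of these inducers in the Mt2 difference was not tested.

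Plasma zinc carriers made by the liver gave 1 lower call among 5 tested probes, near the 17.3% over all tested probes. It was Alb, at -1.11 ± 0.22 (SE; limma adjusted p 0.0085), with a dim probe. The 2 probes of Hrg, a histidine-rich zinc-binding plasma protein gene, differed by -0.40 and -1.09 and were not called (adjusted p 0.287 and 0.0505).

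The genes whose values tracked the called members most closely were found among 3454 probes whose values spanned at least 1 log2 unit, over the 6 arrays. For Mt2 these were App, the amyloid precursor gene (Pearson r 0.996), Eng, encoding endoglin (0.995), and Herpud1, a gene of the endoplasmic reticulum stress response (0.994). Their differences between groups were 0.78, 0.54 and 0.69, of which that of Eng was not called (limma adjusted p 0.077). For Slc39a4 they were Kynu, encoding kynureninase (0.991), Pmvk, a sterol synthesis gene (0.988), and Wfdc3 (0.983), with differences of -0.79, -0.997 and -0.80. These correlations share the group difference and the arrays, are the highest of many, and are given as a description.

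Markers of the cell types in a young liver are given as counts and sums, and their part in the zinc gene differences was not tested. Over all tested probes, 15.8% were called higher and 17.3% lower. Hepatocyte markers had summed normalised intensities of 124254 to 131395 in hSRY-OFF and 118530 to 131884 in hSRY-ON livers, carried mostly by Apoa1, Trf, Ttr and Cps1. Of 8 tested probes, 4 were lower, those of Alb, Serpina1a and Ttr, and the Alb probe was dim. The Tat probe was undetected on every array. Erythroid markers summed to 63703 to 82172 and 80118 to 92423, with 1 of 6 higher, near the share over all tested probes. Hba-a1, with the same normalised value of 15.497 log2 units on every array, makes up a large part of each erythroid sum. Neutrophil markers summed to 45472 to 52432 and 30147 to 90832, with 0 of 9 called and 1 lower at an unadjusted p under 0.05. Macrophage markers summed to 7245 to 9720 and 5110 to 6559 (1 of 10 higher, 4 lower), stellate cell markers to 7327 to 8132 and 18528 to 20428 (5 of 10 higher, 1 lower), and endothelial markers to 2217 to 2660 and 2820 to 3512 (3 of 5 higher). The stellate sum rests on Acta2, a smooth muscle actin gene, which held 4 of the 5 higher probes, with Des as the remaining one. Lrat, the vitamin A storage gene of stellate cells, was undetected in hSRY-ON livers and at least 2.23-fold lower there, and Col1a1 (-0.47), Dcn (0.05 and 0.16) and Pdgfrb (0.24) were not called. Among biliary markers, Krt19 and Sox9 were undetected and 0 of 1 tested probe was called. Slc39a4 and Slc39a5 are also known from the gut, and Slc39a5 from the pancreas. Summed pancreas markers were 607 to 701 in hSRY-OFF and 870 to 1042 in hSRY-ON livers, and intestine markers 496 to 798 and 1211 to 1361. Vil1, Fabp2, Sis and Cdx2 (intestine) and Pnlip and Prss2 (pancreas) were undetected on every array. The pancreatic enzyme genes Ctrb1 and Cpa1 were each detected on hSRY-ON replicate 2 alone, with intensities there of 349 and 191, against 141 to 175 and 125 to 146 on the other 5 arrays. Both Lgals4 probes and the Cela1 probe were detected in all livers and were higher in hSRY-ON livers.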

How the data were processed

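Total RNA of 3 hSRY-OFF and 3 hSRY-ON livers was hybridised by the authors to single-colour bead arrays. The deposited table gives a mean bead intensity that the authors had neither background-corrected nor normalised (lowest value 108) and a deposited detection p-value against negative control beads. Scanner software and genome build are not given in the sources used here. The methods name TCC, a package for counts, and the submitters' processing notes list limma. Since intensities are not counts, limma 3.58.1 in R 4.3.3 was used: normexp background removal (nec, offset 16, which shrinks differences of dim probes), quantile normalisation, log2, then lmFit and eBayes without covariates, two-sided, with Benjamini-Hochberg adjustment over the 10734 probes detected (p under 0.01) on 3 or more of the 6 arrays. The procedure was run on simulated data with far fewer changed probes than were called here, which checks the code and not these results. Groups came from the sample labels, and 0 columns were left without a sample.

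For probes undetected throughout a group, the brighter mean was set against the higher of each array's detection floor and the probe's own value. Where such a probe was tested, it passed the filter only through the group that detected it. Symbols were updated, and promoters taken, from RefSeq tables of GRCm38.p6 (14307 symbols current, 2927 older names, 904 unmatched). The members and gene lists were chosen with earlier results of these data known. Named were all member probes, the called probes of the transporter, metallothionein and copper lists, the 3 largest called differences of each inducer list and the 3 closest correlates of each called member; other genes were chosen after their values were seen. Alternatives covered background correction, offset, scaling, filter, variance model, array weights, replicate block, threshold and each array left out in turn; the fit without normalization between arrays was chosen after seeing the data.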

Additional observations from a re-analysis of the deposited data

How the results depend on the processing

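The difference of Slc39a4 kept its direction and its call in all 18 alternatives, and Mt1 stayed uncalled in all 18 with differences from 0.077 to 0.15. Counts of lower calls in the metallothionein, SLC30 and SLC39 lists lay between 5 and 8. Mt2 was not called with median scaling (0.97), no filter (1.04) or a trimmed mean of M values on uncorrected intensities (0.89), which left 0 members called higher and 1 higher probe in the metallothionein, SLC30 and SLC39 lists in each of these settings. The filter at a detection p of 0.05 made 2 member probes lower. No background correction, normexp without control information, the trend and robust fit and array weights each called 1 copper probe higher. Without normalization between arrays, 1010 of all probes were higher and 1 copper probe lower. At an adjusted p under 0.01, 693 probes were higher and 972 lower, 0 members among the higher and 0 among the lower.

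Leaving out 1 array at a time, with the filter applied to the other 5, gave 856 to 1822 of all probes called higher, 965 to 2125 called lower, 0 to 1 members higher, 1 to 2 higher probes in the metallothionein, SLC30 and SLC39 lists and 1 to 2 lower copper probes (1 without hSRY-OFF replicate 1 or 2). The difference lay between 0.815 and 1.33 for Mt2, between -0.124 and 0.0079 for Slc39a14 (reversed without hSRY-OFF replicate 3) and between 0.42 and 1.01 for Slc30a1. Why these values moved was not tested.

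Replicate numbers are shared by the groups in the labels, but same-numbered arrays deviated together only weakly (correlations of 0.025, 0.095 and 0.052), so they were not treated as pairs. With the replicate block, Mt2 kept its difference of 1.04 (limma adjusted p 0.0056), and 1 copper probe was called lower. Signal over background limits the view of Mtf1, Slc30a1 and both Slc39a14 probes, and Mt1 lies close to the brightest signals.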
